A study of Mus musculus with 4 samples.

Results

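Accessible chromatin was examined at 10 imprinted genes that act on growth (Igf2, Igf2r, Grb10, Cdkn1c, Dlk1, Plagl1, Peg3, Mest, Snrpn and Gnas) in mouse fetal liver at embryonic day 14.5. The assay was ATAC-seq: a transposase inserts sequencing adapters where chromatin is open, and the fragments it frees are read. The series holds 4 libraries. Of these, 2 are labelled wild type (WT replicates 1 and 2) and 2 are labelled knockouts of Hemgn (KO replicates 1 and 2), all made from liver cells by the Omni-ATAC protocol with no treatment named. Hemgn codes for hemogen, which acts in the nucleus of blood cell precursors. The labels used here name no strain, allele or sex, and do not say whether replicates are separate fetuses, so the spread between replicates may be technical. A peak was assigned to one of the 10 genes when its summit lay inside the gene, or within 100 kb of it with that gene as the nearest protein-coding gene. This gave 197 peaks in 69 merged regions, of 55290 regions in all, for 10 of 21779 genes.

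Genomic imprinting silences 1 parental copy of a gene. The silent copy is chosen by DNA methylation laid down in the egg or sperm at control regions, which the zinc finger protein ZFP57 can keep methylated after fertilization by binding the letters TGCCGC. In the fetus, paternally expressed genes such as Igf2 tend to promote growth and maternally expressed genes such as Igf2r, Grb10 and Cdkn1c tend to restrain it. Fetal liver at this age is a blood-forming organ in which red cell precursors mix with hepatoblasts, endothelial cells and stellate cells, and each of these can use the imprinted genes differently. In such a mixture, fewer cells of a type and less open chromatin per cell cannot be told apart.

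Promoters of 5 members are shown first. The strongest shared regions of these genes lie at them or, for Snrpn, just downstream. Those of Gnas, Peg3 and, at its edge, Dlk1 also overlap a RefSeq start window, which is not printed and holds no TGCCGC on either strand. The 5 are therefore a choice, and counts over all member windows follow below. Each is the RefSeq window of 250 bases before to 50 after a transcript start, assembly GRCm38.p6, written 5′ to 3′ on the gene's strand. Capitals mark the letters TGCCGC or their reverse complement.
Snrpn, chr7:60005150-60005449, minus strand: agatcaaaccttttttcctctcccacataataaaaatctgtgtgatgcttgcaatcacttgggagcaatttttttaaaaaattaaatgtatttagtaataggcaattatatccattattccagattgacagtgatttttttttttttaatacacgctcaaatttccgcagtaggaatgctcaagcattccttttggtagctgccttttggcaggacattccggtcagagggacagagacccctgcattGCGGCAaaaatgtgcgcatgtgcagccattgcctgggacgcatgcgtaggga
Mest, chr6:30737800-30738099, plus strand: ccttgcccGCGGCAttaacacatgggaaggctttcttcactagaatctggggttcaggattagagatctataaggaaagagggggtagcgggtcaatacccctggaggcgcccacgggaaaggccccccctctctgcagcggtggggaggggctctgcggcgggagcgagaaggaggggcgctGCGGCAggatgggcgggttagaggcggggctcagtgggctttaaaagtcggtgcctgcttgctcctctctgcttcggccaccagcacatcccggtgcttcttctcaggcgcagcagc
Plagl1, chr10:13090582-13090881, plus strand: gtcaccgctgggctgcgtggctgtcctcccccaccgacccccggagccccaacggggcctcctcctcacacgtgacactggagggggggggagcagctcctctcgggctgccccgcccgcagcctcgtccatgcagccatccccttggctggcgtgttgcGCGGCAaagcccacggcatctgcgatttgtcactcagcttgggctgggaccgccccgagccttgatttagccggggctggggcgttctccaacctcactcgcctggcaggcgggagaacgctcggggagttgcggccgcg
Grb10, chr11:12037371-12037670, minus strand: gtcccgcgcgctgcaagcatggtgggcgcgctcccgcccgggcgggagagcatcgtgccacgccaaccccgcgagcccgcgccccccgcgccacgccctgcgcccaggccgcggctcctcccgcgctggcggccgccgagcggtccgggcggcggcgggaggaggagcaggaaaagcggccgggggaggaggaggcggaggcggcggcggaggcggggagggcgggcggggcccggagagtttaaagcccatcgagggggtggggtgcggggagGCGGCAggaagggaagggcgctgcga
Igf2r, chr17:12769657-12769956, minus strand: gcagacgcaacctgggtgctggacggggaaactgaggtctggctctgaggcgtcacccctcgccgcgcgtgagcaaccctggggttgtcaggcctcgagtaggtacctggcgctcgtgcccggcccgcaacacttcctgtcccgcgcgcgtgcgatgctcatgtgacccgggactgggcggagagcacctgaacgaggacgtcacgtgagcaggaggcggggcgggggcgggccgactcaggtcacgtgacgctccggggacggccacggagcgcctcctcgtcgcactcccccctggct
The Mest window held 2 matches on the strand opposite to the gene, those of Snrpn, Plagl1 and Grb10 held 1 each on the same opposite strand, and the Igf2r window held none.

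Of 32851 RefSeq promoter windows, 41% overlapped a peak in all 4 libraries, against 1.71% to 2.42% after the windows were shifted by 5, 20 and 50 kb. Windows were found for 9 members (all but Cdkn1c), 21 in all, and 10 of the 21 overlapped a peak in all 4 libraries while 7 overlapped none. The covered member windows had a median GC content of 64.5% and a median of 26.5 CpG sites, compared with 49.7% and 4 sites in the 7 uncovered ones. The same contrast held over the whole genome, where covered windows had a median GC content of 62.3% and all windows 52.7%. Searched on both strands, TGCCGC occurred in 6 of the 21 member windows and in 11.6% of all windows. Among windows covered in all 4 libraries it occurred in 4 of 10 member windows and in 21.4% of all. The GC box GGGCGG occurred in 10 of 21 member windows against 35.7% of all, and in 7 of 10 covered ones against 68.5%. The TATA box letters TATAAA occurred in 4 of 21 against 13.6%. The GATA letters AGATAA and a CTCF consensus occurred in 0 of 21, against 11.2% and 0.0365% of all windows. Several member windows overlap one another, as at Mest and Gnas, so these counts are not independent, and a match is only a description of the letters.

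The 10 genes had 62 peaks in WT replicate 1, 39 in WT replicate 2, 43 in KO replicate 1 and 53 in KO replicate 2. The lists themselves held 47858, 34181, 35426 and 43018 peaks, so WT replicate 1 had the longest list and the most member peaks. The mean was 50.5 ± 16.3 peaks (SD, n = 2) in WT and 48 ± 7.07 (SD, n = 2) in KO, a difference of -2.5 peaks with an exact two-sided permutation p = 1. Per 10000 peaks of the list, the 4 libraries held 13.0, 11.4, 12.1 and 12.3 member peaks (exact permutation p = 1). With 2 libraries against 2, the 6 possible relabelings of this test cannot give a p below 0.333, so it cannot pass a threshold of 0.05. Differences between WT and KO are therefore given as values, with whether the groups overlapped.

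Of the 69 regions, 31 had a peak in all 4 libraries (44.9%, against 49.7% of all regions), 11 in 3, 9 in 2 and 18 in 1 (26.1%, against 25% of all regions). WT replicate 1 alone held 11 of the 18 regions seen in a single library, and 51.8% of such regions over the whole genome. The member regions lay mostly inside genes: 35 inside, 9 at a gene boundary (within 1 kb of either end) and 25 outside. Among the 31 shared regions, 22.6% were at a boundary, compared with 41.4% of all shared regions. Dlk1 and Grb10 had 13 regions each, Igf2r 12, Gnas 9, Igf2 8, Cdkn1c 5, Mest and Snrpn 3 each, Plagl1 2 and Peg3 1. The number shared by all 4 libraries was 6 for Grb10 and Gnas, 5 for Igf2r, 4 for Igf2 and Dlk1, 2 for Cdkn1c and 1 for each of the other 4 genes.

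**Figure D1:**
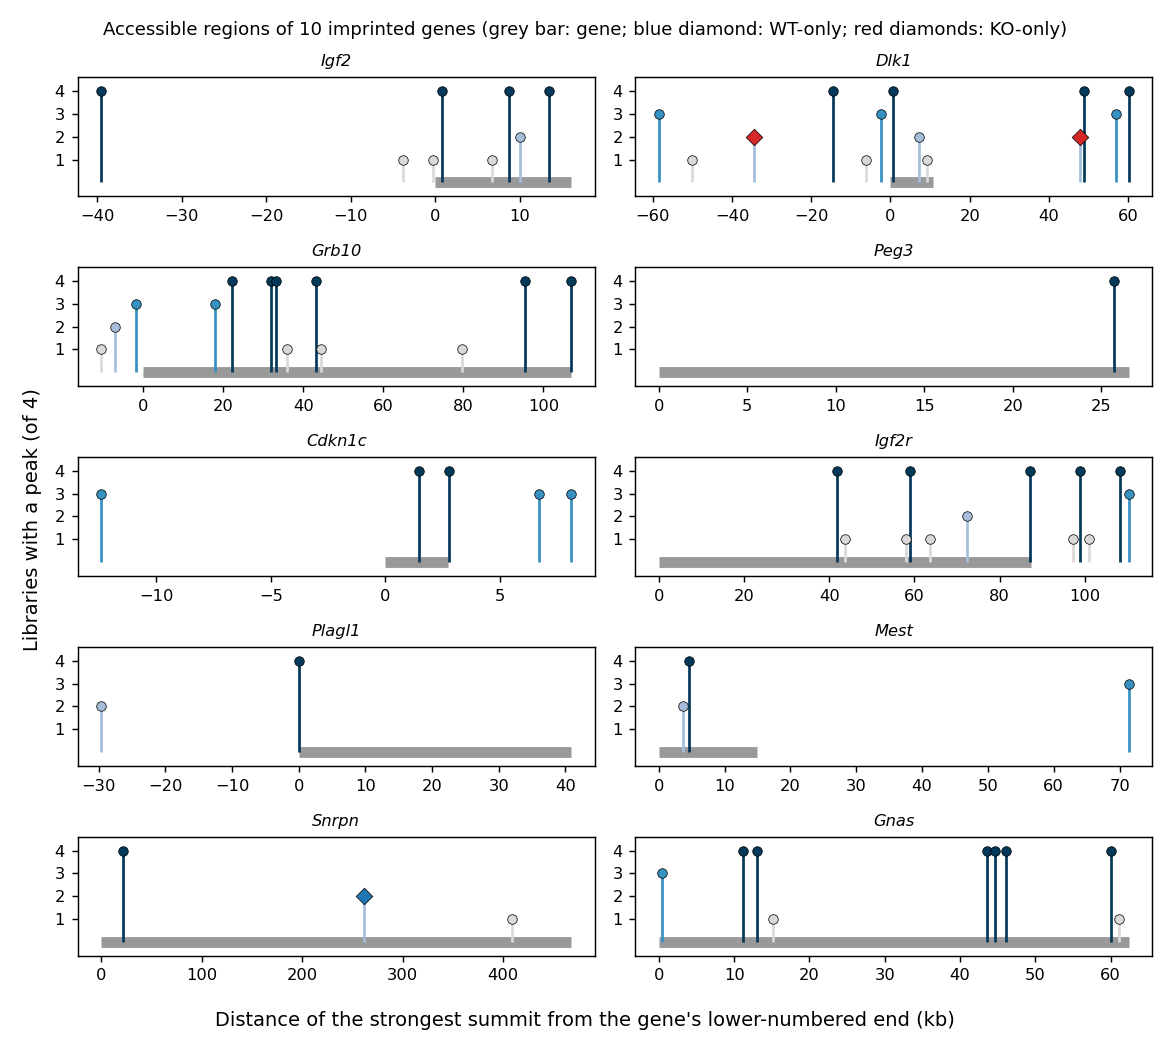
Regions of the 10 imprinted genes. The horizontal axis of each panel is the distance of the region's strongest summit from the lower-numbered end of the gene in kb, the grey bar is the gene, and the height is the number of libraries with a peak. Diamonds mark the 1 region seen only in WT (in Snrpn) and the 2 seen only in KO (beside Dlk1). The 31 regions found in all 4 libraries stand at the top of the panels.

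A boundary peak was present in all 4 libraries at 6 of the 10 genes (Igf2, Grb10, Peg3, Cdkn1c, Igf2r and Plagl1), against 55.4% of all protein-coding genes. Dlk1 and Gnas had one in 3 libraries; at Dlk1 all 4 libraries had a peak there, and the KO replicate 1 summit lay just beyond 1 kb. Mest and Snrpn had one in none, as did 36.6% of all genes, and the region found in all 4 libraries lay inside the annotated gene at each of them.

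To compare strength within a library, each peak's deposited fold enrichment was ranked among all peaks of the same list, from 0 for the weakest to 100 for the strongest. The 31 shared member regions were of middling strength. Their median percentile, averaged over libraries, was 41.6, compared with 63.9 for all shared regions. At gene boundaries the medians were 53.8 for members and 81.3 for all genes, and away from boundaries 40.3 and 52.9. By library, the median of the shared member regions was 55.4 and 39.0 in WT and 43.5 and 41.3 in KO, and that of all shared regions was 70.9 and 59.5 in WT and 61.1 and 67.7 in KO. WT replicate 1 thus gave the highest percentile at 22 of the 31 member regions and at 60.9% of all shared regions, and WT replicate 2 the lowest at 17 of the 31 and at 48.8% of all. The spread between the 2 WT libraries touches every percentile comparison below.

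**Figure D2:**
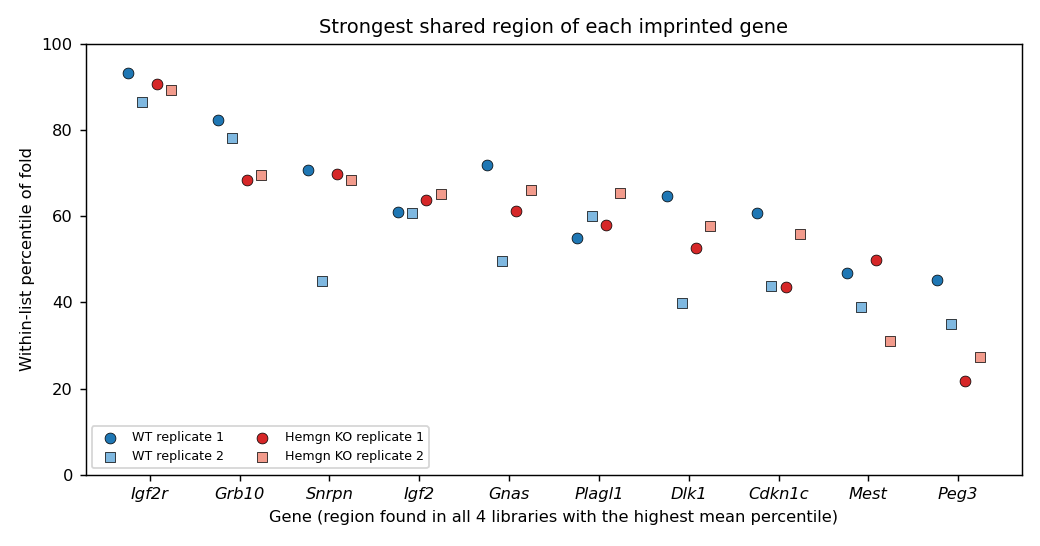
The strongest shared region of each gene. The vertical axis is the within-list percentile of fold (0 to 100), the points are the 4 libraries, and genes are ordered by their mean. Igf2r lies highest (86.6 to 93.2) and Peg3 lowest (21.7 to 45.3); in Igf2, Grb10 and Peg3 the WT and KO points do not overlap.

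Igf2 encodes insulin-like growth factor 2, the main growth factor of the fetus. Its strongest shared region lay 39.5 kb outside the gene, at chr7:142610575-142611718, and reached percentiles of 61.0 and 60.9 in WT and 63.9 and 65.1 in KO. Only protein-coding genes were used for assignment, and this region lies nearer to the noncoding RNA gene H19, whose regions span chr7:142574834-142578486. At this region of Igf2's list both genotypes had a peak in every library. The KO libraries were both higher, by 3.56 points in the mean (WT 60.9 ± 0.0737, KO 64.5 ± 0.835, SD over 2 libraries each). Inside the gene, the region at chr7:142658931-142660162, which overlaps a RefSeq start window of Igf2, reached 39.5 and 16.4 in WT and 39.2 and 30.8 in KO, with overlapping groups. Igf2's transcripts run on the minus strand, so its 2 boundary regions were at the end where transcription stops. The one at chr7:142651306-142651686 was weak, at percentiles of 1.92 and 1.57 in WT and 25.97 and 6.67 in KO. The other, at chr7:142650374-142650604, appeared in WT replicate 1 alone, at a percentile of 2.49.

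Igf2r encodes the cation-independent mannose 6-phosphate receptor, which takes up IGF2 and sends it to lysosomes, and it is expressed from the maternal copy in most mouse tissues. Its promoter, printed above, was the strongest member region. The region at chr17:12769047-12770163 reached 93.2 and 86.6 in WT and 90.6 and 89.3 in KO, and the means differed by 0.0163 points. Its summits were 60 to 133 bases after the RefSeq start. The number of fragments stacked at the summit, the pileup, was 500 and 172 in WT and 243 and 259 in KO. Inside Igf2r lies the start of Airn, a long noncoding RNA made from the paternal copy that silences Igf2r on that copy. The region covering it, chr17:12741200-12742717, reached 39.5 and 22.6 in WT and 46.5 and 38.0 in KO, and the groups overlapped. Outside the gene, the region at chr17:12780995-12781644 reached 72.4 and 48.5 in WT and 44.3 and 41.3 in KO, so both KO libraries were lower, with a mean difference of -17.7 points.

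Grb10 encodes an adaptor protein that damps signalling from the insulin and IGF1 receptors. Its main promoter region, at chr11:12036414-12037971, reached 82.2 and 78.2 in WT and 68.5 and 69.6 in KO. Both KO libraries were lower, with means of 80.2 ± 2.83 in WT and 69.0 ± 0.757 in KO (SD over 2 libraries each). The local background beside it, which divides the pileup in a fold, was 24.2 and 9.09 fragments in WT and 15.2 and 20.3 in KO. An inner region, chr11:11952430-11953065, was the only one of the 31 whose groups did not overlap and whose means differed by 20 points or more. It reached 58.9 and 49.0 in WT and 39.3 and 25.8 in KO, from pileups of 51, 23, 18 and 22 in the same order. The inner region chr11:12025567-12026688, beside a further RefSeq start of Grb10, reached 71.2 and 65.4 in WT and 74.7 and 67.8 in KO, with overlapping groups.

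Cdkn1c encodes p57, an inhibitor of cyclin-dependent kinases that restrains cell division and is expressed from the maternal copy. Its boundary region, chr7:143460588-143461536, reached 60.8 and 43.7 in WT and 43.5 and 56.0 in KO, with overlapping groups. A second shared region inside the gene, chr7:143459378-143459983, lay near the bottom of every list, at 2.15 and 1.202 in WT and 3.40 and 0.835 in KO. The other 3 Cdkn1c regions were each missing in WT replicate 2 alone.

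Dlk1 encodes a transmembrane protein of the Notch ligand type that hepatoblasts carry and that is expressed from the paternal copy. Its boundary region, chr12:109452853-109453855, reached 64.8 and 39.9 in WT and 52.6 and 57.7 in KO, with overlapping groups. Regions with a peak in both KO libraries and no WT library (KO-only) numbered 2 of the 69, against 1.41% of all regions, and both belonged to Dlk1. One, chr12:109417720-109418059, was 34.6 kb outside the gene and had percentiles of 22.0 and 7.43 in KO, from 13 fragments in each. The other, chr12:109500008-109500531, was 36.9 kb outside and had percentiles of 23.8 and 32.1, from 13 and 19 fragments. Beside it lay a region that all 4 libraries hold, chr12:109501169-109501459, which reached 46.7 and 37.7 in WT and, with the same fold as its neighbour, 23.8 and 32.1 in KO. The lowest pileup called against the usual background was 15 and 9 fragments in WT and 9 and 12 in KO, so the KO-only peaks rest on counts close to that limit.

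Plagl1 encodes a zinc finger factor of an imprinted growth network, and its imprinted promoter is active on the paternal copy. The region at this promoter, chr10:13090490-13091261, reached 54.9 and 60.0 in WT and 57.9 and 65.5 in KO, with overlapping groups. Its summits were 14 to 71 bases after the transcript start of the window printed above.

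Peg3, a paternally expressed zinc finger gene, had a single region, chr7:6727856-6730588, which was the longest of those named here at 2733 bases. It reached 45.3 and 35.0 in WT and 21.7 and 27.4 in KO. Both KO libraries were lower, with means of 40.1 ± 7.29 in WT and 24.5 ± 4.04 in KO (SD over 2 libraries each). The pileup was 133 and 72 in WT and 74 and 94 in KO, against a local background of 26.7 and 13.8 in WT and 18.0 and 23.0 in KO.

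Mest, a paternally expressed gene for an enzyme of the alpha/beta hydrolase fold, had its shared region at an inner start, chr6:30737735-30738397, whose window is printed above. It reached 46.8 and 39.0 in WT and 49.8 and 30.9 in KO, with overlapping groups.

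Gnas encodes the stimulatory G protein alpha subunit and several other products from alternative first exons that differ in their imprint. The shared region at chr2:174329552-174331128, which covers the start of a RefSeq transcript whose window is 81.7% GC, had the highest pileups of all member regions, 835 and 251 in WT and 423 and 516 in KO. It reached 72.0 and 49.7 in WT and 61.2 and 66.1 in KO. Another shared region upstream of it, chr2:174327340-174328040, also covers a RefSeq start and had pileups of 317 and 130 in WT and 163 and 205 in KO. It ranked low, at 24.2 and 7.02 in WT and 4.46 and 9.04 in KO. The local background by which its fold divides stood at 90.8 and 38.7 fragments in WT and 55.2 and 67.3 in KO, far above the library-wide level. The upstream boundary region, chr2:174284195-174285269, was found in 3 libraries, at 30.1 in WT replicate 1 and at 34.9 and 9.41 in KO.

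Snrpn encodes a spliceosome protein, and its promoter region contains the imprinting centre that controls a large domain on chromosome 7. The shared region just downstream of the printed start, chr7:60003477-60005185, reached 70.9 and 44.9 in WT and 69.8 and 68.4 in KO, with overlapping percentiles. The window itself had 40.3% GC and was touched by the KO replicate 2 peak only. Snrpn also held the 1 region of the 69 with a peak in both WT libraries and no KO library (WT-only), against 2.2% of all regions. This region, chr7:60243943-60244491, lay inside the long annotated gene 206 kb from its nearer end, at percentiles of 57.1 and 41.5 from 40 and 17 fragments. Exclusive regions were also counted with 1 library left out. The rule is then looser, since only 1 library of that genotype must hold or lack the peak, so the counts tend to rise. The same counts were not made over all regions, so they cannot be read as particular to the members. Without WT replicate 1, 3 regions were WT-only and 8 KO-only, and without WT replicate 2, 12 were WT-only. Without KO replicate 1, 5 were KO-only, and without KO replicate 2, 5 were WT-only and 4 KO-only.

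Over all 31 shared regions, the KO percentiles were both below WT at 6 (19.4%, against 13.6% of all shared regions) and both above at 2 (6.45%, against 9.98%), and they overlapped at 23. With a mean difference of 20 points or more, 1 region was lower (1.63% of all shared regions) and 0 were higher (1.2% of all). The median difference was -1.38 points, compared with -0.58 for all shared regions, and single regions ranged from -21.4 to 14.6. For the strongest regions of the 10 genes the groups did not overlap at 3 (Igf2, Grb10 and Peg3), as at 24.2% of 13817 genes. By the exact permutation test with Benjamini-Hochberg adjustment, 0 of those genes had an adjusted p under 0.05, and 0 an unadjusted one. This outcome was fixed in advance, since the test cannot give a p below 0.333. Leaving out WT replicate 2 turned the sign at 4 of the 10 genes, to -9.65 points at Dlk1, -3.27 at Igf2r, -1.75 at Snrpn and -8.35 at Gnas.

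A second measure was computed after these percentiles had been seen. The pileup at each summit was recovered from the deposited fold and −log10 p and divided by a library factor (1.72 and 0.695 in WT, 0.785 and 1.08 in KO), the median ratio over the 27473 regions found in all 4 libraries. Unlike the percentile, this scaled pileup does not divide by the local background. KO was both above WT at 10 of the 31 member regions (32.3%, against 21.8% of all shared regions) and both below at 4 (12.9%, against 22.1%). When the pileup was scaled by the library-wide background instead, the split was 6 above (against 16.6%) and 5 below (against 23.7%). The median log2 ratio of KO to WT was 0.10 for members and -0.0024 for all shared regions. The low ranks of KO at the Grb10 promoter were not seen on this scale, where it stood at 176 and 163 in WT and 181 and 157 in KO. Peg3 likewise overlapped, at 77.1 and 104 in WT and 94.2 and 87.1 in KO. The Cdkn1c boundary was nearly level, at 107 and 105 in WT and 108 and 107 in KO. The Dlk1 boundary, whose percentiles overlapped, was higher in both KO libraries, at 50.4 and 43.2 in WT and 64.9 and 58.3 in KO (log2 0.40). The inner Grb10 region that differed by over 20 points remained lower, at 29.6 and 33.1 in WT and 22.9 and 20.4 in KO, as did the Igf2r flank at chr17:12780995-12781644, at 43.5 and 34.5 in WT and 26.7 and 26.9 in KO. The region over the Airn start was higher, at 32.5 and 37.4 in WT and 48.4 and 45.4 in KO.

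The shared Snrpn region just downstream of the printed start differed most. Its pileup was 57 and 18 fragments in WT and 58 and 74 in KO, and the scaled pileup was 33.0 and 25.9 in WT and 73.9 and 68.5 in KO. Both KO libraries were above both WT libraries, 2.43-fold in the geometric mean (log2 1.28, exact permutation p = 0.333, the smallest the design allows). It was the only one of the 31 with a log2 ratio beyond 1 in either direction, and 12 of the 27473 shared regions, this one included, reached its ratio. A ratio of 1 or more with both KO libraries higher occurred at 0.244% of all shared regions, and one of -1 or less with both lower at 0.262%. With each library left out in turn the log2 ratio was 1.11 to 1.46, and with scaling by background it was 1.26. The percentiles overlapped, and the fold that they rank divides by the local background at the peak. In WT this stood at 5.67 and 2.29 fragments, the same as each library's usual background. In KO it stood at 5.48 and 8.61, against a usual background of 2.49 and 3.80.

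**Figure D3:**
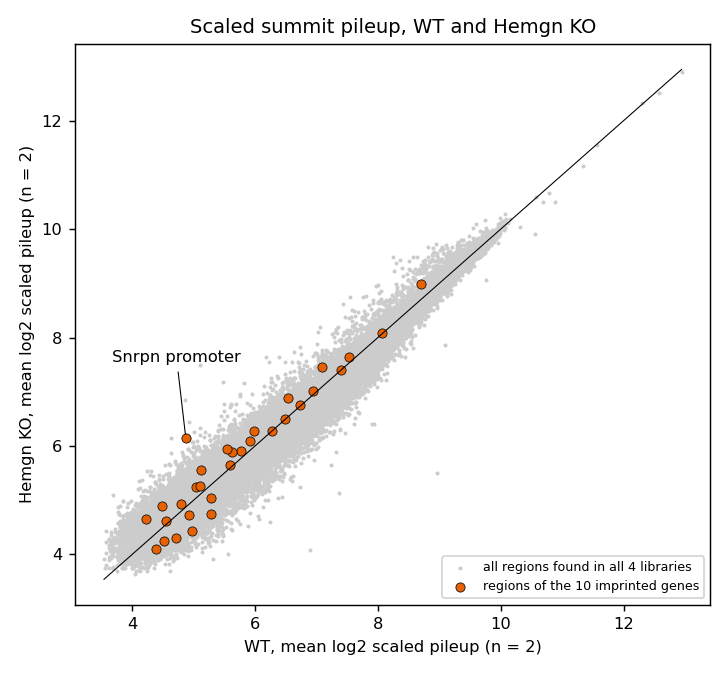
Scaled summit pileup of WT (horizontal) and Hemgn KO (vertical), each the mean of the log2 values of 2 libraries, for all 27473 regions found in all 4 libraries (grey) and the 31 member regions (orange). The line marks equality, and most member regions lie near it. The point labelled Snrpn promoter is the shared region just downstream of the printed start and lies above the line by 1.28.

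Promoters of other genes of the Snrpn domain were then read on the same scale. Ndn and Mkrn3, intronless paternally expressed genes of the domain, stood at 12.2 and 17.3 in WT and 19.1 and 27.8 in KO (log2 0.67), and at 22.6 and 21.6 in WT and 29.3 and 26.9 in KO (log2 0.34). Peg12, a neighbour that was in no list and was named after its values were seen, stood at 44.6 and 38.9 in WT and 54.8 and 72.2 in KO (log2 0.59). At each of these 3 promoters both KO libraries were higher, by less than at Snrpn, as at 21.8% of all shared regions. Magel2, another paternally expressed gene of the domain, had a peak in WT replicate 1 (9.86) and KO replicate 1 (20.4) only. Ube3a, which is expressed from both copies in most tissues outside the brain, overlapped at 551 and 538 in WT and 595 and 533 in KO (log2 0.05). Beyond Ube3a, the strongest shared region of Atp10a, a gene of the list of other imprinted genes, was also higher in both KO libraries. It stood at 82.9 and 89.2 in WT and 105.7 and 90.8 in KO (log2 0.19), so higher KO values were not confined to the paternally expressed genes named here.

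**Figure D4:**
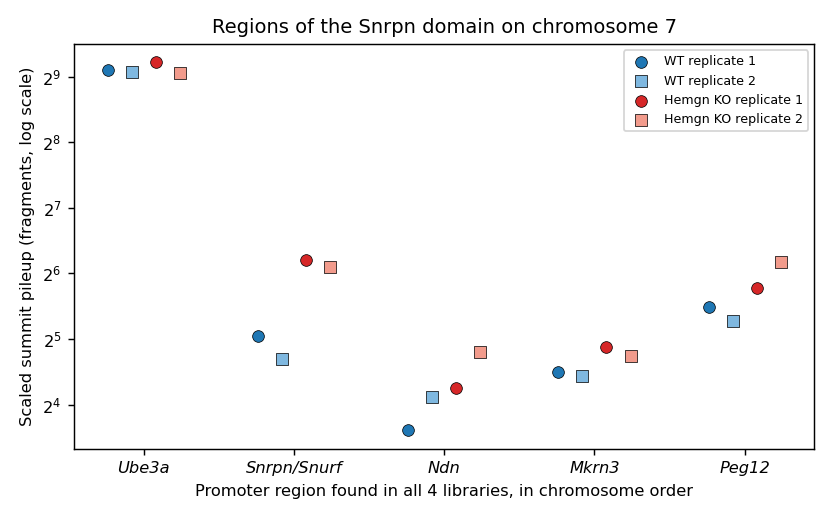
Regions of the Snrpn domain from Ube3a to Peg12 that were found in all 4 libraries, in chromosome order. Atp10a, beyond Ube3a, is not drawn. They lie at promoters or, for Snrpn, just downstream of the printed start. The vertical axis is the scaled summit pileup in fragments on a log scale, and points are the 4 libraries. The KO points lie above the WT points at Snrpn (Snurf is its upstream reading frame), Ndn, Mkrn3 and Peg12, and overlap them at Ube3a.

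Marker regions of the liver's cell types were read on the same scale. The 27 shared regions of 8 erythroid markers (such as Gata1, Klf1 and Alas2) summed to scaled pileups of 5989 and 5438 in WT and 4694 and 5118 in KO. Both KO libraries were lower at 16 of these 27 regions and higher at 1, against 22.1% and 21.8% of all shared regions. By percentile, both KO libraries were lower at 2 of the 27 and higher at 2, with a median difference of 0.577 points. The 13 shared regions of 8 endothelial and stellate markers (such as Cdh5 and Pdgfra) summed to 328 and 363 in WT and 442 and 399 in KO, with 5 higher and 0 lower. The 16 of 9 hepatoblast markers (such as Hnf4a and Krt18) summed to 797 and 779 in WT and 735 and 783 in KO, with 3 higher and 1 lower. Afp and Serpina1a had no shared region and add nothing to this sum. Hepatoblast markers had 4 WT-only regions of 47 (8.51%, against 2.2% of all regions), at Alb, Afp, Foxa2 and Krt18, and 0 KO-only regions. Granulocyte markers had 2 WT-only regions of 6, at S100a8 and Camp, and macrophage markers 1 of 7, at Csf1r. Endothelial and stellate markers had 2 KO-only regions of 42 (4.76%, against 1.41% of all regions), at Pecam1 and Pdgfra, and 0 WT-only regions. Erythroid markers had 2 WT-only and 1 KO-only regions of 55 (3.64% and 1.82%). With scaling by background the splits of erythroid, endothelial and stellate, and hepatoblast markers were 19 lower and 0 higher, 4 higher and 0 lower, and 2 higher and 2 lower. Boundary peaks were shared by all 4 libraries at 6 of the 8 erythroid markers, 5 of 9 hepatoblast markers and 3 of 8 endothelial and stellate markers, and at 0 of 5 macrophage and 0 of 5 granulocyte markers, against 55.4% of all genes. Of the markers in these lists, Serpina1a, Cd68, C1qa and Elane had no peak in any library. The part of cell composition in the Snrpn result was not tested. Hemgn itself had 2 regions in the gene or at its boundary, both with a peak in all 4 libraries, which neither checks the labels nor goes against them.

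Related genes gave the following counts. Of 44 other imprinted genes 43 were in the gene table, 23 of them had a boundary peak in every library, and 75 of their 160 regions were shared. Among those 75, the scaled pileup was lower in both KO libraries at 19 and higher at 17 (22 and 12 with scaling by background), against 22.1% and 21.8% of all shared regions, with a median log2 ratio of 0.01. By percentile, both were lower at 16 and higher at 8, against 13.6% and 9.98%. Of the 160 regions, 2 were WT-only and 4 KO-only (1.25% and 2.5%, against 2.2% and 1.41% of all regions). Their WT-only regions were at Usp29 (percentiles 36.5 and 4.5) and Ppp1r9a (16.8 and 8.2). Their KO-only regions were at Osbpl5 (29.03 and 42.1), Slc22a3 (33.9 and 54.4) and Trappc9 (4.3 and 25.4 at one, 18.3 and 44.9 at the other). Of 9 imprinted noncoding RNA genes 8 were found, and 12 of their 28 regions were shared, and 4 of the 6 shared regions inside Airn are also Igf2r regions. H19, the maternally expressed RNA next to Igf2, had 4 regions and none in all 4 libraries. The Kcnq1ot1 promoter, the control region of the Cdkn1c domain, reached 76.5 and 67.0 in WT and 69.6 and 74.4 in KO.

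Of the 19 genes of IGF signalling and CDK inhibition, 15 had a boundary peak in every library, and 47 of their 98 regions were shared, with KO percentiles both lower at 8 and both higher at 4 (against 13.6% and 9.98% of all shared regions). By scaled pileup 7 were lower and 13 higher, against 22.1% and 21.8% of all shared regions. With scaling by background 6 were lower and 11 higher, against 23.7% and 16.6%. Of the 98 regions, 4 were WT-only and 3 KO-only, 4.08% and 3.06%, against 2.2% and 1.41% of all regions. Igf1r, the signalling receptor for IGF2, had 1 WT-only region (46.3 and 11.1) and 2 KO-only regions (1.4 and 2.6 at one, 23.8 and 37.7 at the other). Irs2, an adaptor of that receptor, had 2 WT-only regions (40.8 and 13.1 at one, 8.2 and 3.1 at the other) and 1 KO-only region (1.6 and 1.0). Igf2bp3, an RNA-binding protein named for Igf2 RNA, had 1 WT-only region (24.5 and 0.7). Of the 7 genes that maintain imprints, 4 had a boundary peak in all 4 libraries (Zfp445, Trim28, Ctcf and Uhrf1), 7 of 13 regions were shared, and 0 were exclusive to a genotype.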

How the data were processed

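The authors deposited a separate peak list for each library, in the narrowPeak layout and without a header. The tools named are MACS2 2.2.7.1, Picard 2.21.4, SAMtools 1.9 and Bowtie2 2.3.5, per the submitters' processing notes. The sources used here state neither settings nor a genome build. The deposited fold is the ratio of the pileup to the local background at a summit, with 1 added to each, the 2 deposited −log10 columns hold the caller's p and q, and the deposited score follows the q. Because a fold depends on its own library, it was compared only as a rank within a list. Peaks sharing at least 1 bp were merged across libraries. WT-only means a peak in both WT and no KO library, and KO-only the reverse. Pileups were recovered from the deposited fold and −log10 p as the whole number that returns both within 0.001 (96.9% to 99.8% of peaks). The remaining peaks kept the nearest whole number. Recovery was tested on simulated data with a single low background and with pileups below the highest of the member regions, so it does not cover those. Depth is not stated; the usual background was 5.67, 2.29, 2.49 and 3.80 fragments in WT replicates 1 and 2 and KO replicates 1 and 2. Gene names came from a RefSeq table of GRCm38.p6, with 108 genes placed in the first 3 Mb of a chromosome left out, and printed region coordinates are those of the lists. Python 3.11.15, pandas 2.3.3 and SciPy 1.17.1 were used.

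The members and lists were chosen with earlier results of these data known. A further marker list is not reported here. Regions were named by rule: each member's strongest region among those found in all 4 libraries, every boundary region, every genotype-exclusive region, and every shared region with non-overlapping percentiles 20 or more points apart. Regions at inner starts, the Igf2r flank, the Dlk1 neighbour, the second Cdkn1c region and the Snrpn domain were named after their values were seen. Alternatives covered merging, list length, distance, the ranked value, each library left out and a block by replicate number.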

Additional observations from a re-analysis of the deposited data

How the results depend on the processing

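WT replicate 1 had the highest background and the longest list, and WT replicate 2 the lowest and the shortest; the part of depth in these values was not tested. With lists cut to equal length by q, 28 regions were shared, 2 were WT-only and 3 KO-only. The peak difference became 1, and 5 genes had a boundary peak in all 4 libraries. In the upper 50% of each list by fold, 5 regions were shared, 0 were WT-only, 0 were KO-only and 3 genes had a boundary peak in all 4 libraries; values could be had for 4 of the 10 strongest regions. With summits up to 20 kb, or in gene bodies only, 0 regions were KO-only, since both lie farther out. Shares of all regions were not counted under these alternatives. Leaving out 1 library, which loosens these rules, gave 31 to 38 shared regions, 1 to 12 WT-only and 2 to 8 KO-only regions. It gave 6 to 7 genes with a boundary peak. The peak difference then ran from -14 to 9; it was 9 without WT replicate 1 and 2.5 without KO replicate 1. The median percentile difference of the 10 strongest regions was 1.41 and ran from -7.40 to 3.91. The log2 ratio at Snrpn ran from 1.11 to 1.46.

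Of 74 values of single genes under these alternatives, the replicate block aside, 61 kept their direction and 13 reversed. Reversed values were -0.186 points at Igf2r with equal lists, 0.0323 at Cdkn1c by −log10 p, and -0.242 at Igf2r and 1.205 at Mest with percentiles among shared regions only. With 1 library left out the difference ran from -9.65 to 15.2 at Dlk1, -11.1 to 6.03 at Cdkn1c, -3.27 to 3.30 at Igf2r, -11.9 to 6.86 at Mest, -1.75 to 24.2 at Snrpn and -8.35 to 13.9 at Gnas. The negative ends at Dlk1, Igf2r, Snrpn and Gnas were those without WT replicate 2. The cause was not tested.

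Deviations of same-numbered libraries correlated at -0.130 over 27473 shared regions, and those of crossed libraries at 0.130. With 2 libraries per genotype these are 1 value with opposite signs, so they cannot show whether the replicate numbers mark pairs. With a replicate block the peak difference is -2.5, the median percentile difference 1.41 and the log2 ratio at Snrpn 1.28, equal to the unblocked values by construction, and the smallest possible exact p is 0.5, so no call could be made with either pairing. The alternatives by shared regions and by crossed pairing, and the scaled pileup, were chosen after seeing the data.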
